A study of Mus musculus with 4 samples.

Results

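*Gata2*, *Gata3*, *Gata4*, *Gata5* and *Gata6* were followed through mouse gastruloid culture from single-cell RNA counts. They were picked by symbol from the feature lists, where they were 5 of 32286 features at days 4, 5 and 6 and 5 of 32287 at day 11, and all 5 had UMIs (unique molecular identifiers, each marking 1 captured transcript) on every day. GATA factors are zinc finger transcription factors that bind the DNA letters GATA with a preferred base on either side. *Gata2* and *Gata3* belong to the branch of the family known from blood progenitors, endothelium, lymphocytes, ectoderm and the nephric duct, whereas *Gata4*, *Gata5* and *Gata6* form the branch known from heart and endoderm. In the embryonic heart the latter 3 factors overlap and act with *Nkx2-5* and *Tbx5*, and in early endoderm *Gata4* and *Gata6* act upstream of or beside *Sox17*.

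The gastruloids were aggregates of the wild-type Zx1 mouse embryonic stem cell line that received a pulse of the Wnt agonist Chiron and, from day 4 and for 3 days, bFGF, VEGF and ascorbic acid. The gastruloids of day 11 had therefore spent their last days in N2B27 medium without these factors, so that age and medium cannot be told apart between days 6 and 11. The added factors and shaking both began at day 4. Age cannot be told apart from them between day 4 and day 5 or 6 either. Gastruloids of day 4, day 5, day 6 or day 11 were pooled and dissociated, and a single 10x Genomics library was made for each day. Because there was 1 library per day and 1 line, no difference between days or groups of cells could be set against a spread between replicates, and no p-value is given. All intervals are at 95% and cover counting error only.

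On the GRCm38 build with GENCODE vM21 annotation, *Gata2* (ENSMUSG00000015053) lies at chr6:88193891-88207032 on the plus strand, *Gata3* (ENSMUSG00000015619) at chr2:9857078-9890034 on the minus strand and *Gata4* (ENSMUSG00000021944) at chr14:63198922-63271692 on the minus strand. *Gata5* (ENSMUSG00000015627) lies at chr2:180325133-180334699 on the minus strand and *Gata6* (ENSMUSG00000005836) at chr18:11052064-11085635 on the plus strand. *Gata5* is overlapped by the antisense gene *Gata5os*, *Gata6* by *1010001N08Rik* on the opposite strand, and *Gata3* by *4930412O13Rik* and *Gm13256* on the opposite strand and by *9230102O04Rik* on the same strand. UMIs in the part of *Gata3* shared with *9230102O04Rik* may have been left out or credited to either gene.

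After filtering, 6551 cells of day 4, 6446 of day 5, 5238 of day 6 and 7840 of day 11 were used, with median depths of 24200.0, 28126.5, 24747.5 and 11436.5 UMIs. Day 11 was therefore the shallowest library, and between 5 and 23 cell barcodes were shared by any pair of libraries, at most 0.295% of the cells of either. Levels are given as CPM, for which a gene's UMIs were added up over a set of cells and scaled to 1000000 UMIs of that set. A positive cell held at least 1 UMI, and because that share grows with depth it is also given after reducing every cell to 5000 UMIs, which left out 2 shallower cells at day 6 and 317 at day 11. In a level summed over cells, fewer expressing cells and less RNA per cell cannot be told apart.

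The binding motif of the family was searched in RefSeq promoter windows (GRCm38.p6, 250 bases before to 50 bases after the gene start) with the spelling AGATAA or the spelling AGATAG, and likewise with the spelling TGATAA or the spelling TGATAG, on both strands. Of all 32851 windows in the table, 9778 (29.8%) held at least 1 match. Among the factors themselves the *Gata3* window held 1 match, 36 bases after the RefSeq start, which lies inside the GENCODE span given above, and the windows of *Gata2* (2 promoters) and *Gata5* held none. The windows of *Gata4*, *Gata6* and *Cdh5* were not analysed here. The match of *Gata3* is shown with the motif in capitals, 5′ to 3′ along the gene, at chr2:9878551-9878576 on the minus strand.
*Gata3*: ctggcgccgtctTGATAGtttcagaa

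Of the textbook cardiac targets of GATA factors, the atrial and brain natriuretic peptide genes *Nppa* and *Nppb* and the alpha myosin heavy chain gene *Myh6* held matches, as did the atrial myosin light chain gene *Myl7*, which marks cardiomyocytes in the comparisons that follow. The windows of *Tnni3*, *Tnnc1* and *Actc1* and of the gating genes *Epcam* and *Sox2* had no match to these letters. The matches are shown because the levels of the same genes are set beside those of the factors, and their motif is again in capitals. They lie at chr4:147985793-147985822 and chr4:147985804-147985833 for *Nppb*, 95 and 84 bases before the RefSeq start, at chr4:148000588-148000617 for *Nppa*, 122 bases before it, at chr11:5898807-5898836 (minus strand) for *Myl7*, 42 bases before it, and at chr14:54966825-54966854 (minus strand) for *Myh6*, 235 bases before it, where the letters are those of the opposite strand. A match is a feature of the sequence and was not shown to be bound.
*Nppb*, first: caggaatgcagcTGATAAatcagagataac
*Nppb*, second: ctgataaatcagAGATAAccccacccctac
*Nppa*: gctttgccgaacTGATAActttaaaagggc
*Myl7*: tgggcctctgggTGATAAggctgagacata
*Myh6*: cctgtctctcctCTATCTgcccatcggccc

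The 5 factors followed different courses over the days. *Gata2* was highest at day 5, *Gata3*, *Gata4* and *Gata5* at day 6, and *Gata6* at days 6 and 11, where its summed levels could not be told apart. From day 4 to day 5, 1 of the 5 was at least 2-fold higher (*Gata2*, against 19.1% of all 17202 genes with 30 or more UMIs over both days) and 1 at least 2-fold lower (*Gata4*, against 7.51%). From day 5 to day 6, 3 were at least 2-fold higher (*Gata4*, *Gata5* and *Gata6*, against 18% of genes) and 0 lower (against 14.1%). From day 6 to day 11, 0 were higher (against 19.2%) and 3 lower (*Gata2*, *Gata3* and *Gata5*, against 7.72%).

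*Gata2*, a factor of haematopoietic and endothelial progenitors, stood at 1.48 CPM (1.32 to 1.67), 6.30 (5.96 to 6.66), 4.09 (3.77 to 4.42) and 1.92 (1.68 to 2.20) on the 4 days. Day 5 was 4.25-fold above day 4 (3.73 to 4.84), and day 11 was 2.12-fold below day 6 (1.82 to 2.49). Positive cells made up 3.68%, 12.8%, 7.04% and 2.24% of the cells on the 4 days, and 0.727%, 2.86%, 1.74% and 0.863% at equal depth. The order of the days was thus the same for level, share and share at equal depth from day 4 to day 6, whereas day 11 lay above day 4 in level and at equal depth and below it in the share as sequenced.

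*Gata3*, known from surface ectoderm, the nephric duct and T cells, stood at 6.58 CPM (6.23 to 6.95), 9.13 (8.72 to 9.56), 14.1 (13.5 to 14.7) and 3.46 (3.13 to 3.82). Its steps were small up to day 6, at 1.39-fold and 1.55-fold, and day 11 was 4.08-fold below day 6 (3.66 to 4.56). Its positive cells amounted to 15%, 21.3%, 23.9% and 3.71% of all cells, and to 3.24%, 4.5%, 6.39% and 1.74% at equal depth.

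*Gata4*, a regulator of heart and foregut development, had its lowest value at day 5, with 29.8 CPM (29.0 to 30.6), 10.8 (10.4 to 11.3), 33.6 (32.7 to 34.6) and 17.8 (17.05 to 18.6) on the 4 days. Day 5 was 2.75-fold below day 4 (2.61 to 2.89) and day 6 was 3.099-fold above day 5 (2.95 to 3.26). Day 11 was 1.89-fold below day 6 (1.79 to 1.99), and 2-fold was passed, at a ratio of 0.395, with the mean of the CPM of single cells. Day 6 stood 1.13-fold above day 4 (1.09 to 1.17). As sequenced, positive cells made up 44.3%, 24.2%, 36.4% and 16.1% of the cells, and at equal depth 12.7%, 5.16%, 14.9% and 6.75%, so that the order of days 4 and 6 depended on depth. Positive cells averaged 2.64 *Gata4* UMIs at day 6 and 2.00 at day 4.

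*Gata5*, which acts in cardiac progenitors, endocardium and gut, had the widest range across the days. It stood at 1.42 CPM (1.25 to 1.59), 2.45 (2.24 to 2.68), 46.2 (45.1 to 47.3) and 13.8 (13.2 to 14.5) in the same order. Day 6 was 18.9-fold above day 5 (17.2 to 20.7), the largest step of any of the 5 factors, and day 11 was 3.34-fold below day 6 (3.16 to 3.53). Positive cells made up 3.62%, 6.13%, 47.0% and 13.5% of the cells, and 0.645%, 1.22%, 20.5% and 6.19% at equal depth.

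*Gata6*, a factor of early endoderm and of cardiac mesoderm, stood at 78.3 CPM (77.0 to 79.5), 54.5 (53.5 to 55.6), 165 (163 to 167) and 163 (161 to 166) on the 4 days. Day 6 was 3.03-fold above day 5 (2.96 to 3.1002), and the ratio of day 11 to day 6 was 0.989, with an interval of 0.970 to 1.01 that holds 1. *Gata6* was the one of the 5 whose level at day 11 was at most 1.5-fold away from that of day 6. The mean of the CPM of single cells, by contrast, was 194 at day 6 and 157 at day 11. The share of positive cells was lower at day 11, at 50.8% against 72.1% at day 6, and at 38.5% against 45.9% at equal depth. Cells with 10 or more *Gata6* UMIs numbered 263, 42, 866 and 442 on the 4 days, and the highest count in a single cell was 54, 18, 71 and 38.

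**Figure D1:**
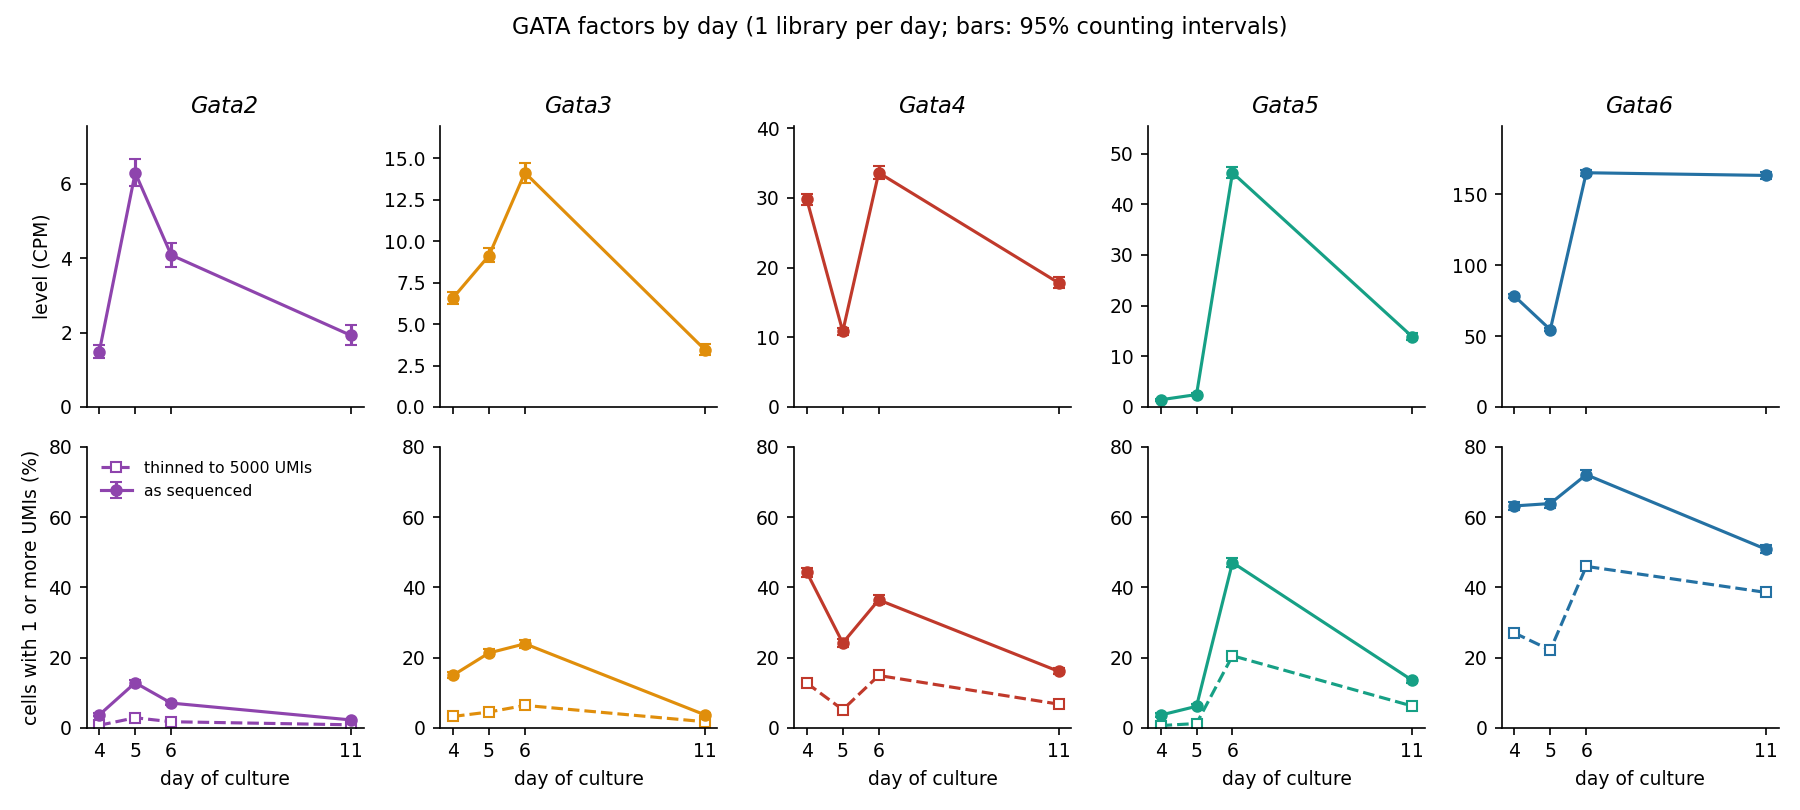
Level of each GATA factor in CPM (upper panels, linear axes from 0) and percentage of positive cells (lower panels) against day of culture, 1 library per day; bars are 95% counting intervals and open squares show the share after reduction to 5000 UMIs per cell. *Gata2* peaks at day 5, *Gata3*, *Gata4* and *Gata5* at day 6, and *Gata6* stays at 163 CPM at day 11.

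To see where the transcripts lay, cells were gated by UMIs of 4 marker genes: *Myl7* (10 or more UMIs), *Cdh5*, the endothelial cadherin (2 or more), *Epcam*, an epithelial adhesion molecule of endoderm and of pluripotent cells (2 or more), and *Sox2*, a factor of pluripotent and neural cells (2 or more). Cells passing a single gate, cells passing *Epcam* and *Sox2* together and cells passing none were kept as separate classes, and classes with at least 50 cells were compared with the ungated cells of the same day, which numbered 4827, 4318, 3398 and 5440. The *Myl7* gate held 228 cells at day 4, 773 at day 6 and 1349 at day 11, and the *Cdh5* gate held 105, 345 and 322 at days 5, 6 and 11. The *Epcam* gate held 866, 1637 and 166 cells at days 4, 5 and 6. The remaining classes at these days had 14 cells (*Myl7*, day 5), 2 cells (*Cdh5*, day 4) and 43 cells (*Epcam*, day 11) and were not described further.

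The gates were checked against marker lists. The summed level of 8 cardiomyocyte markers in the *Myl7* gate was 8654 CPM at day 6 and 22306 at day 11, against 134 and 330 in ungated cells, with 8 of 8 markers at least 2-fold higher on both days. At day 4 the same list summed to 15.7 CPM against 9.15, with 1 of 8 markers at least 2-fold higher, so the *Myl7* gate of day 4 was not a cardiomyocyte class and is named here by its gene alone. Of 8 endothelial markers, 7, 8 and 8 were at least 2-fold higher in the *Cdh5* gate at days 5, 6 and 11, and of 8 endoderm markers 7, 8 and 7 in the *Epcam* gate at days 4, 5 and 6. The *Epcam* gate also carried pluripotent markers, with 6, 6 and 3 of 7 at least 2-fold higher and sums of 445, 186 and 16 CPM against 104, 22.5 and 4.41. At day 6 this gate carried intermediate mesoderm markers too, with 4 of 6 at least 2-fold higher and 151 against 92.3 CPM in sum. Of its streak and nascent mesoderm markers 5 of 6 were that much higher at day 6, with 94.3 against 21.2 CPM. *Lhx1* is in both of these lists. The *Sox2* gate carried pluripotent markers at day 4 (6 of 7 at least 2-fold higher) and day 5 (7 of 7), and neural ectoderm markers at day 6 (7 of 7) and day 11 (6 of 7).

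*Gata4* and *Gata6* were at least 2-fold higher in the *Myl7* gate than in ungated cells at days 6 and 11, whereas *Gata2* and *Gata3* were at least 2-fold lower there on both days. At day 6 *Gata4* stood at 90.5 CPM in gated and 29.7 in ungated cells, 3.04-fold higher (2.86 to 3.23). *Gata6* stood at 374 against 170, 2.20-fold higher (2.14 to 2.26), and was detected in 771 of 773 gated cells. *Gata5* stood at 92.7 against 52.8, 1.76-fold higher (1.66 to 1.85), which did not reach 2-fold. The 2 factors higher and 2 lower compare with 8.1% of all tested genes at least 2-fold higher and 8.91% lower. Gates of 50 or more *Myl7* UMIs, with 4 or more for the other genes, brought the *Gata6* ratio of day 6 to 1.90.

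At day 11 the 2 cardiac factors parted from *Gata5*. *Gata4* stood at 40.5 CPM in the *Myl7* gate and 10.0 in ungated cells, 4.04-fold higher (3.67 to 4.46), and the gate held 54.1% of all *Gata4* UMIs of the day. *Gata6* stood at 322 against 137, 2.34-fold higher (2.27 to 2.41), and was detected in 88.7% of gated cells. The ratio of *Gata5* was 1.03 (0.914 to 1.15), from 15.8 and 15.4 CPM. In the same comparison 11.9% of all genes were at least 2-fold higher and 26.9% lower, with a median ratio of 0.778 over all genes. Between days 6 and 11 *Gata6* went from 374 to 322 CPM in the *Myl7* gate and from 170 to 137 in ungated cells. In the *Cdh5* gate it went from 91.1 to 74.7, and in the *Sox2* gate it stood at 5.23 and 5.47. The *Myl7* gate held 13.5% of the UMIs of day 6 and 23.8% of those of day 11. The part of that shift in the summed level of *Gata6* was not tested.

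*Gata2* and *Gata3* were scarce in the *Myl7* gate. *Gata3* stood 4.10-fold below ungated cells at day 6 (3.30 to 5.16), and at day 11 it had 10 UMIs in 1349 cells, 14.3-fold lower (7.67 to 30.1), or a ratio of 0.174 in place of 0.07 with doublets left in. *Gata2* was 2.02-fold lower at day 6 (1.35 to 3.12), a ratio of 0.496 that came to 0.519 with doublets left in and to 0.640 with lower gate limits, and had 4 UMIs at day 11, 12.4-fold lower (4.73 to 46.3). With gates that were not exclusive the latter ratio was 0.156 in place of 0.0805.

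At day 4, 0 of the 5 factors differed 2-fold between the *Myl7* gate and ungated cells (1.6% of genes were that much higher and 7.36% lower). *Gata4* came nearest among the higher ratios, at 53.0 against 30.8 CPM, 1.72-fold (1.57 to 1.89), with 82.5% of gated and 46.0% of ungated cells positive. Median depths differed in the same direction, 36536.5 UMIs in the gate and 23379 without it, and at equal depth the shares were 24.2% and 13.4%.

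The cells were also graded by their *Myl7* count. At day 6 *Gata4* stood at 20.03 CPM in cells with no *Myl7* UMI, 28.7 with 1 to 9, 96.6 with 10 to 99 and 81.7 with 100 or more, and *Gata6* at 113, 149.96, 406 and 328. *Gata5* followed the same course, with 33.5, 44.0, 97.4 and 84.4 CPM. All 3 were thus highest in cells with 10 to 99 *Myl7* UMIs at day 6 and a little lower in those with more. At day 11, by contrast, *Gata4* (9.54, 12.1, 34.3 and 41.4 CPM) and *Gata6* (110, 119, 280.2 and 324 CPM) were highest in the top grade. *Gata5* was also highest there, but lay between 11.6 and 16.3 CPM in all grades. *Gata3* ran the other way, from 16.6 to 3.06 CPM at day 6 and from 4.34 to 0.173 at day 11 between cells with no *Myl7* and the top grade.

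**Figure D2:**
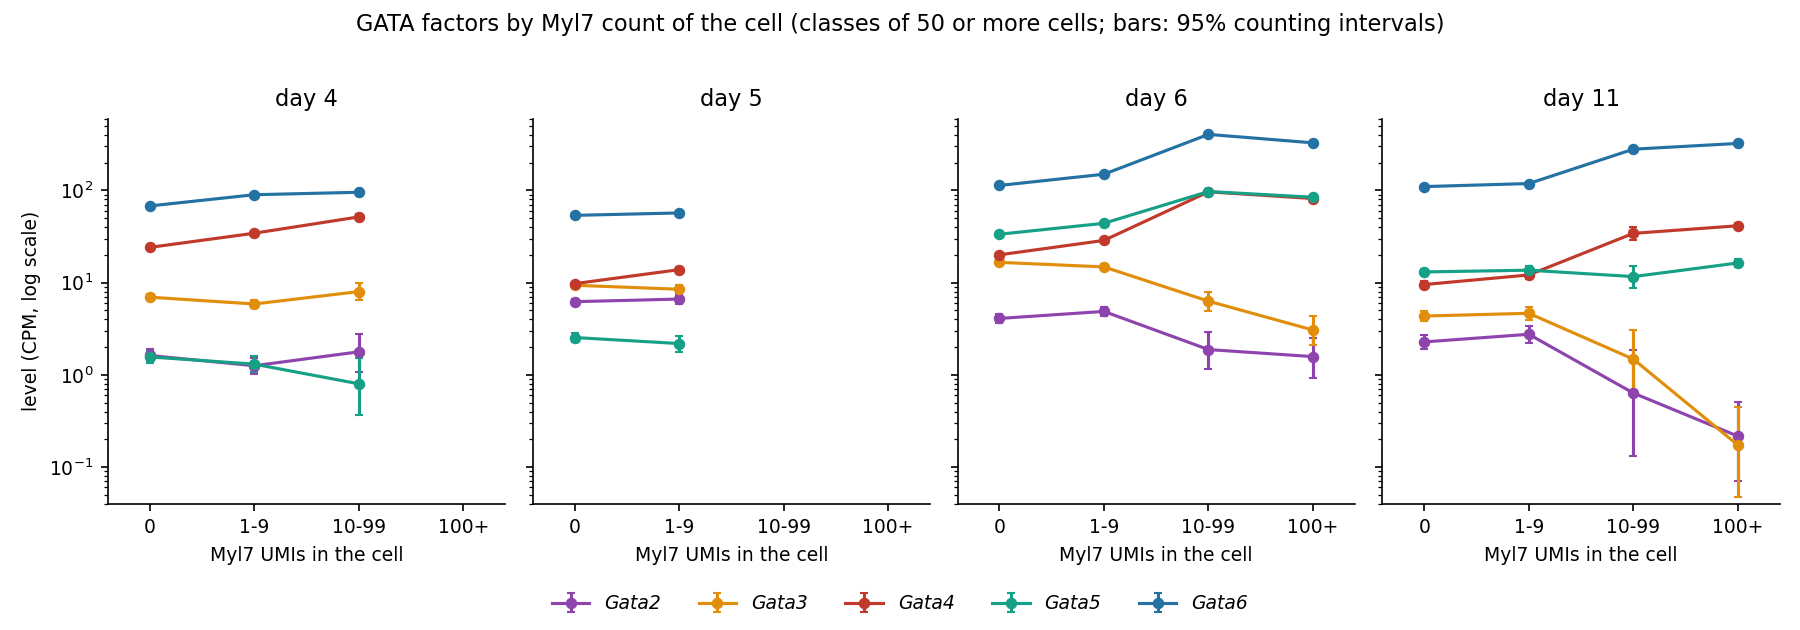
Level of each GATA factor in CPM (log axis) in cells grouped by their number of *Myl7* UMIs, by day; bars are 95% counting intervals and grades with under 50 cells are left out. At day 6 the lines of *Gata4*, *Gata5* and *Gata6* reach their top at 10 to 99 *Myl7* UMIs. At day 11 *Gata5* lies between 11.6 and 16.3 CPM, while *Gata2* and *Gata3* lie below 1 CPM in the top grade.

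*Gata2* was at least 2-fold higher in the *Cdh5* gate than in ungated cells on the 3 days that had one. At day 5 it stood at 38.6 CPM in gated and 6.20 in ungated cells, 6.23-fold higher (5.24 to 7.37), with 65.7% of gated cells positive against 12.6%. At day 6 it stood at 24.3 against 2.70, 9.02-fold higher (7.60 to 10.7), and at day 11 at 9.59 against 1.84, 5.21-fold higher (3.85 to 6.999). The gate held 6.59% of the cells of day 6 and 51.6% of their *Gata2* UMIs (316 of 612), and 34.9% of the *Gata2* UMIs of day 11. Between 8.66% and 11.1% of all tested genes were at least 2-fold higher in the gate on the 3 days (8.86% at day 5, 11.1% at day 6, 8.66% at day 11). Gated cells were deeper, with median depths of 33548, 32688 and 19755.5 UMIs, and at equal depth 17.1% of them held *Gata2* at day 5 against 2.81% of ungated cells.

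Of the other factors, *Gata3* and *Gata5* had ratios below 1 in the *Cdh5* gate on all 3 days. *Gata5* had 0 UMIs in the 105 gated cells of day 5, which allows a share of up to 2.86% of cells with a UMI. Set at that floor of 3 UMIs, a 1-sided limit unlike the intervals elsewhere, it was at least 3.59-fold lower than in ungated cells. At day 6 *Gata5* was 3.65-fold lower (3.15 to 4.24) and at day 11 its ratio was 0.794 (0.638 to 0.978). *Gata3* was 3.57-fold lower at day 5 (1.99 to 7.17), and its ratios at days 6 and 11 were 0.638 and 0.548. At least 2-fold lower levels were found for 10.5%, 18.7% and 26% of all genes in the gate at days 5, 6 and 11.

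*Gata4* was level with ungated cells at days 5 and 6, at ratios of 0.909 (0.644 to 1.25) and 1.003 (0.899 to 1.12), and at day 11 it stood at 27.9 CPM in the *Cdh5* gate against 10.0, 2.79-fold higher (2.38 to 3.25). Against all other cells of day 11, the *Myl7* gate included, that ratio was 1.63. The cardiomyocyte list summed to 81.1 CPM in the *Cdh5* gate of day 11, against 330 in ungated cells and 22306 in the *Myl7* gate. *Gata6* had ratios of 0.709, 0.536 and 0.544 in the *Cdh5* gate at the 3 days.

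In the *Epcam* gate, which held endoderm and pluripotent markers, none of the factors was at least 2-fold away from ungated cells at day 4 (11% of genes higher, 4.72% lower) or day 5 (10.1% higher, 1.6% lower). At day 4 *Gata4* had a ratio of 1.03 (0.957 to 1.11) and *Gata6* of 0.988 (0.944 to 1.03). At day 6, 3 of the 5 were at least 2-fold lower (7.69% of genes were), namely *Gata4* at 2.39-fold, *Gata5* at 8.60-fold (6.12 to 12.5) and *Gata6* at 2.32-fold, and 0 were higher (9.58% of genes). With gate limits of 5 *Myl7* UMIs and 1 UMI of the other genes, the ratios of *Gata4* and *Gata6* were 0.586 and 0.670, past the 2-fold limit no more, and that of *Gata5* was 0.466 in place of 0.116. *Gata3* stood at 33.7 CPM in the *Epcam* gate of day 6, its highest class of cells, against 17.5 in ungated cells, 1.92-fold (1.64 to 2.25), with 47.0% of gated cells positive. That class also carried intermediate mesoderm and streak markers, and which of its cells held *Gata3* was not tested by these lists.

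The *Epcam* gate was not uniform, and in a split chosen after its values were seen, gated cells with a UMI of the endoderm factors *Sox17* or *Foxa2* were set against those without. At day 4 the 463 cells with such a UMI held *Gata4* at 40.4 CPM, *Gata6* at 106 and *Gata3* at 10.6, and the 403 cells without held 20.4, 53.6 and 6.08. At day 6 the 63 cells with it held *Gata4* at 21.4 CPM and *Gata6* at 92.6, and the 103 cells without held 3.69 and 53.9. *Gata3* at day 6 was at 31.1 and 36.2 CPM in these cells, with intervals that overlap. With the endoderm factors present, the ratio of *Gata4* to ungated cells at day 6 was 0.719, no longer 2-fold lower. At day 5 *Gata4* stood at 17.8 and 12.6 CPM and *Gata5* at 4.42 and 2.21. *Gata6* at day 5 was at 56.8 (53.6 to 60.2) and 54.4 CPM (51.9 to 57.1), with intervals that overlap.

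The factors were low where *Sox2* was found. In cells passing *Epcam* and *Sox2* together, 7 of 7 pluripotent markers were at least 2-fold higher at days 4, 5 and 6, and so were 7, 5 and 7 of 8 endoderm markers (421, 148 and 433 CPM in sum, against 10.4, 11.5 and 3.86). There 4 of 5 factors were at least 2-fold lower at day 4 (all but *Gata2*, against 9.75% of genes), 5 of 5 at day 5 (against 13.3%) and 4 of 5 at day 6 (all but *Gata3*, ratio 0.963, against 11.1%), and 0 were higher, against 14%, 13.9% and 11.1% of genes. With doublets left in, *Gata3* at day 4 and *Gata4* at day 5 came to ratios of 0.544 and 0.527, which ends their calls. *Gata2* at day 6 had 1 UMI in 65 cells, and its ratio of 0.112 came to 0.517 with gates that were not exclusive.

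In the *Sox2* gate alone 3, 3, 5 and 5 were at least 2-fold lower at days 4, 5, 6 and 11, against 4.84%, 4.7%, 15.6% and 20.2% of genes, and 0 were higher on any day, against 8.49%, 12%, 6.37% and 7.88%. The counts at days 4 and 5 include *Gata5* with 6 and 1 UMIs, and the interval of the former holds a ratio of 1 (0.482, 0.175 to 1.06). With lower gate limits all 3 calls of day 4 were lost, at ratios of 0.537 for *Gata4*, 0.789 for *Gata5* and 0.550 for *Gata6*, as were those of *Gata5* (0.525) and *Gata6* (0.509) at day 5. At day 11 *Gata2* had a ratio of 0.453, which came to 0.565 with lower gate limits.

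The neural class of day 11 also served as a measure of free RNA. *Gata4* had 4 UMIs in 2 of the 645 *Sox2*-gated cells (0.310%), 27.0-fold below ungated cells (10.5 to 99.3), and *Gata6* was found in 3.57% of them against 46.3% of ungated cells, at 5.47 against 137 CPM, 25.1-fold lower (19.4 to 33.0). Median depths were 13489 and 10318 UMIs, so the lower shares lay in the deeper cells. At day 6 *Gata6* stood at 5.23 CPM in the *Sox2* gate against 170 in ungated cells, 32.5-fold lower (26.5 to 40.3), and *Gata4* at 1.19 against 29.7, 24.9-fold lower (16.3 to 40.3). With doublets left in, the ratio of *Gata6* was 0.0854 in place of 0.0308 at day 6 and 0.0914 in place of 0.0398 at day 11, and that of *Gata4* at day 6 was 0.0947 in place of 0.0402. *Gata4* at day 11 came to 0.0947 in place of 0.0371 with gates that were not exclusive. *Myl7* itself was found in 35.0% of *Sox2*-gated cells at day 11, at 32.6 CPM against 44.0 in ungated cells. Both classes hold only cells with fewer than 10 *Myl7* UMIs, so the gates bound these 2 levels and they cannot measure free *Myl7* RNA.

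**Figure D3:**
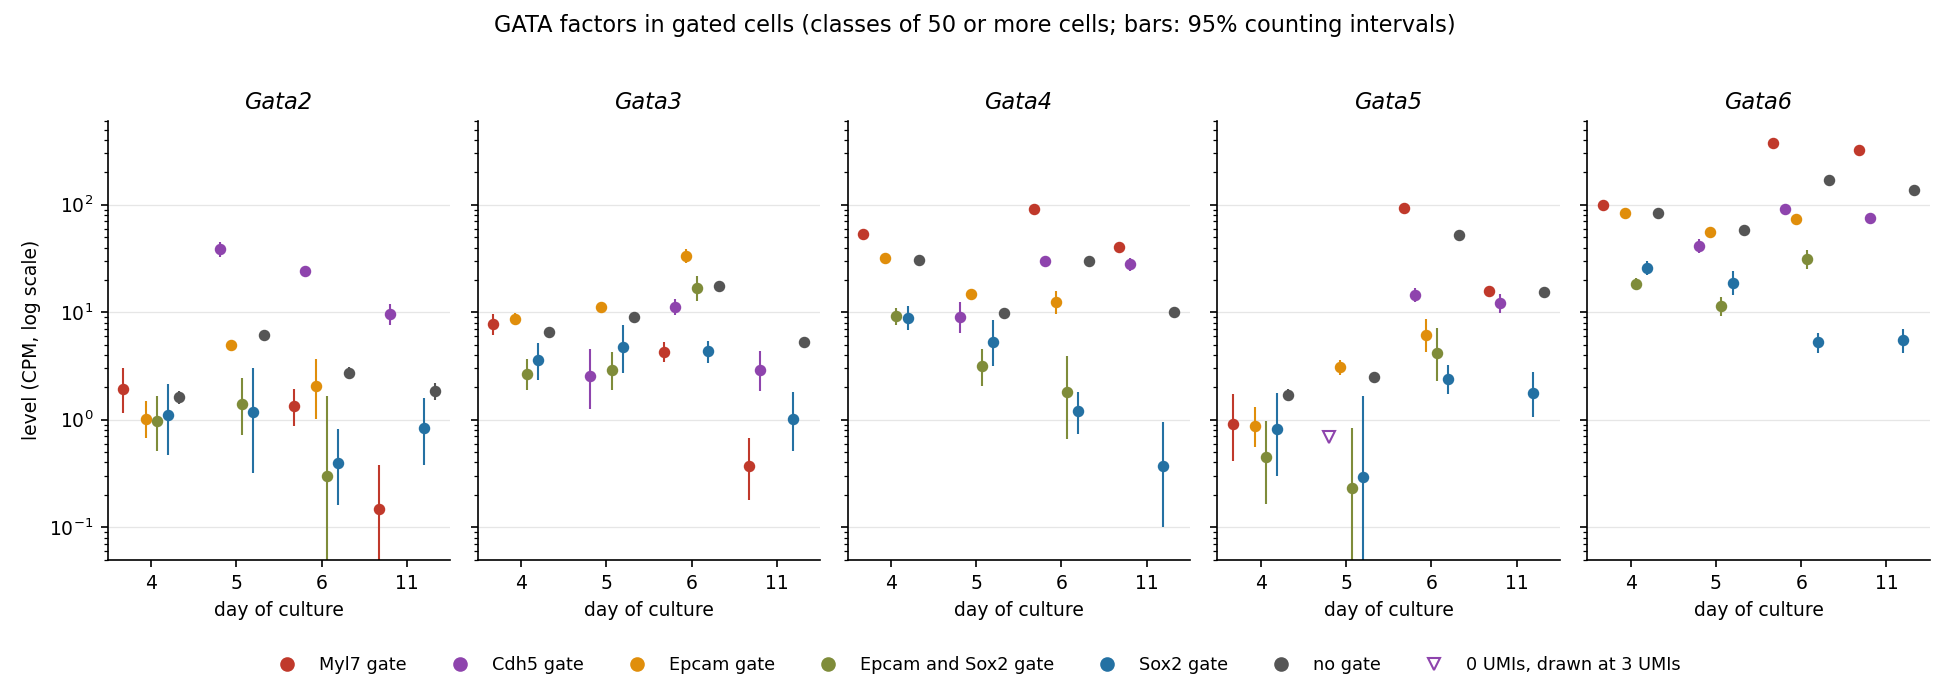
Level of each GATA factor in CPM (log axis) in gated classes of at least 50 cells against day; bars are 95% counting intervals and the open triangle marks 0 UMIs, drawn at the floor of 3 UMIs. *Gata2* is highest in the *Cdh5* gate on the 3 days that have it, *Gata4* and *Gata6* in the *Myl7* gate at days 6 and 11, and *Gata3* in the *Epcam* gate at day 6.

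Over the 20 classes of gate and day, the order of levels had few clear steps. Counting a step between neighbours as clear when their intervals did not overlap, 5 of 19 steps were clear for *Gata2*, 3 for *Gata3*, 4 for *Gata4*, 3 for *Gata5* and 8 for *Gata6*. *Gata2* was highest in the *Cdh5* gate of day 5, then of day 6, then of day 11, and lowest in the *Myl7* gate of day 11 (0.148 CPM). *Gata4* was highest in the *Myl7* gates of day 6, day 4 and day 11, *Gata5* in the *Myl7* gate of day 6 followed by the ungated cells of day 6 (52.8 CPM), and *Gata6* in the *Myl7* gates of day 6 and day 11. *Gata3* was highest in the *Epcam* gate of day 6, and its next classes, ungated cells (17.5 CPM) and *Epcam* and *Sox2* cells (16.9) of day 6, had overlapping intervals.

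The balance within pairs of factors also differed between classes. *Gata2* made up 93.8%, 68.5% and 76.8% of the *Gata2* and *Gata3* UMIs in the *Cdh5* gate of days 5, 6 and 11, but 40.6%, 13.4% and 25.8% in ungated cells, and 5.73% in the *Epcam* gate of day 6. *Gata4* made up 27.6%, 16.6%, 16.9% and 9.84% of the *Gata4* and *Gata6* UMIs of all cells on the 4 days. In the *Cdh5* gate of day 11 that share was 27.2%, against 11.2% in the *Myl7* gate and 6.79% in ungated cells. *Gata5* made up 21.9% of the *Gata5* and *Gata6* UMIs at day 6 and 7.81% at day 11, where the *Myl7* gate had 4.69% and ungated cells 10.1%. These shares compare UMI counts of genes of similar transcript length and say how the mix differed, not which protein was more abundant.

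Co-detection was measured as the number of cells holding UMIs of both factors over the number given by the product of the shares, summed over 10 bins of cells by depth. Such a ratio cannot pass 1 over the larger of the 2 shares, so the ratios of pairs with *Gata6*, which most cells held, were not compared between days or classes. The 3 pairs among *Gata4*, *Gata5* and *Gata6* exceeded the product on every day. For *Gata4* and *Gata6* the ratio was 1.19 (1.15 to 1.24), 1.17 (1.10 to 1.23), 1.31 (1.25 to 1.38) and 1.63 (1.53 to 1.72) at days 4, 5, 6 and 11, from 2335, 1220, 1832 and 1173 cells with both. Of the cells with *Gata4*, 80.5%, 78.4%, 96.1% and 93.0% also held *Gata6*. For *Gata4* and *Gata5* the ratio was 1.31, 1.45, 1.54 (1.46 to 1.62) and 1.87 (1.69 to 2.06), and for *Gata5* and *Gata6* it was 1.28, 1.29, 1.29 (1.24 to 1.35) and 1.65 (1.55 to 1.76). At equal depth the ratio of *Gata4* and *Gata6* was 1.35, 1.25, 1.73 and 1.92 without bins.

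Cells with all 3 of these factors made up 2.35%, 2.16%, 26.5% and 4.92% of the cells at days 4, 5, 6 and 11 (154, 139, 1389 and 386 cells). In the *Myl7* gate of day 6 they were 475 of 773 cells, or 61.4%, and 2 cells had none of the 3. In the *Myl7* gate of day 11 they were 196 of 1349, or 14.5%, and 9.56% had none, at a lower median depth of 17251 against 23152 UMIs. Of the *Sox2*-gated cells of day 11, 96.1% had none of the 3.

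Within the *Myl7* gate of day 6, where 75.5% of cells held *Gata4*, 79.0% *Gata5* and 99.7% *Gata6*, the measure has little room above 1. At day 11, with 48.9% and 23.9% of gated cells positive, *Gata4* and *Gata5* had a ratio of 1.08, with an interval of 0.939 to 1.25 that holds 1. In ungated cells of day 11, where 8.57% and 12.5% were positive, the same pair stood at 2.53 (2.16 to 2.95). In the *Cdh5* gate *Gata4* and *Gata5* stood at 1.86 (1.41 to 2.41) at day 6 and 1.89 (1.27 to 2.72) at day 11.

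Pairs that joined the 2 branches of the family lay on both sides of the product. Over all 10 pairs, 7, 4, 4 and 7 had an interval above 1 at days 4, 5, 6 and 11, and 0, 1, 1 and 1 had an interval below 1. These counts include the pairs within a branch, which are *Gata2* and *Gata3* and the pairs among *Gata4*, *Gata5* and *Gata6*. The pairs below 1 were *Gata2* and *Gata5* at day 5, with 36 cells and a ratio of 0.650 (0.455 to 0.899), and *Gata3* and *Gata4* at day 6, at 0.874 (0.790 to 0.965), and at day 11, with 32 cells and 0.588 (0.402 to 0.830). *Gata3* and *Gata4* had stood at 1.12 (1.03 to 1.22) at day 4. The 1 pair at 2 or more times the product was *Gata2* and *Gata3* at day 11, with 19 cells against 7.51, a ratio of 2.53 (1.52 to 3.95). Cells without any of the 5 factors made up 25.0%, 22.2%, 18.4% and 45.1% of the libraries, and 2, 5, 30 and 2 cells held all 5.

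**Figure D4:**
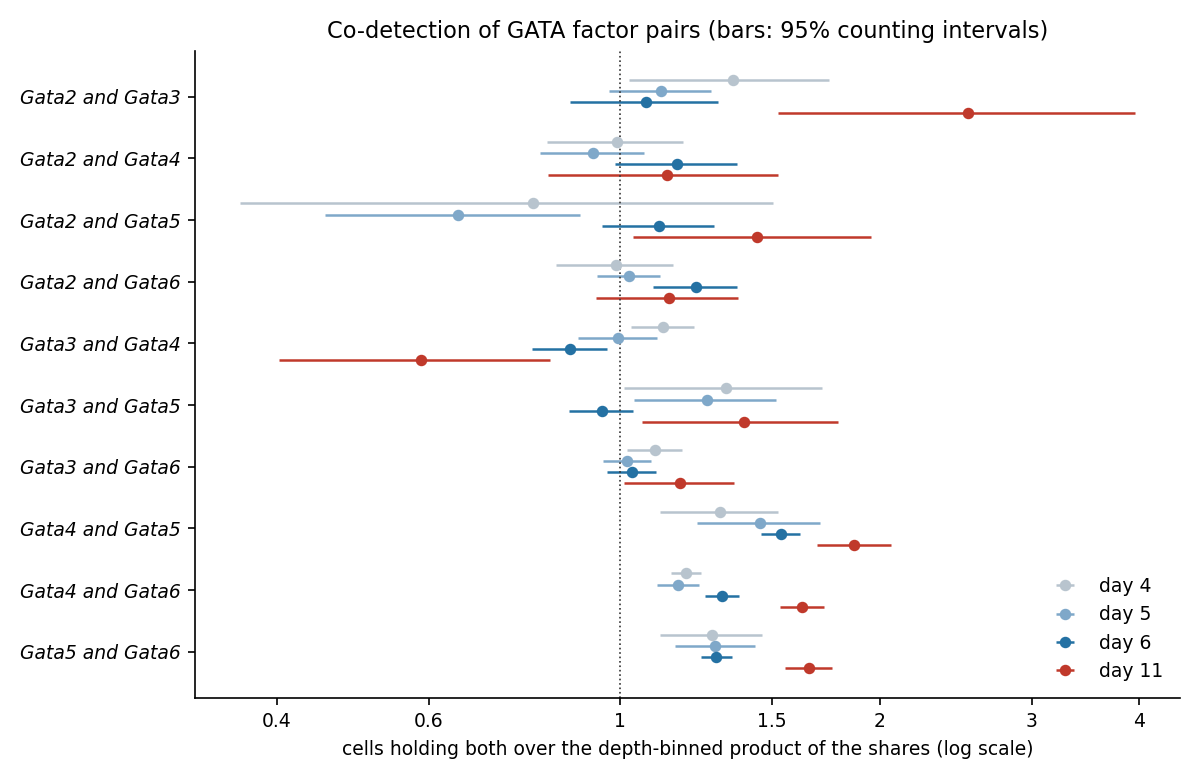
Cells holding UMIs of both factors over the depth-binned product of the shares (log axis) for the 10 pairs on each day; bars are 95% counting intervals and the dotted line marks 1. The 3 lowest rows, the pairs among *Gata4*, *Gata5* and *Gata6*, lie to the right of the line on every day, and *Gata3* and *Gata4* lie to the left of it at days 6 and 11.

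Genes that work with GATA factors were taken from short lists. Of 8 cardiac partners, 6 were at least 2-fold higher at day 6 than at day 5, against 18% of all genes. The median ratio of the 8 was 6.01 against 1.10 over all genes. The 6 were the homeobox factor *Nkx2-5*, the T-box factors *Tbx5* and *Tbx20*, *Hand2*, *Mef2c* and *Zfpm2*, the zinc finger cofactor of *Gata4*. *Nkx2-5* stood at 0.287 CPM at day 5, 10.4 at day 6 and 37.7 at day 11, and *Mef2c* at 4.75, 139 and 122. In the *Myl7* gate 5 of the 8 were at least 2-fold higher than in ungated cells at day 6 and 4 of 8 at day 11. Of all genes 8.1% and 11.9% were. *Srf* and *Smad4* were within 2-fold in all of these comparisons. *Nkx2-5* is also in the cardiomyocyte marker list used to check the *Myl7* gate.

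Of 6 cardiac genes known as GATA targets, 6 were at least 2-fold higher at day 11 than at day 6, against 19.2% of all genes. Their median ratio was 12.9 against 1.08 over all genes, while the ratios of *Gata4*, *Gata5* and *Gata6* for the same step were 0.530, 0.300 and 0.989. *Nppa* stood at 0.327 CPM at day 6 and 41.4 at day 11, and *Myh6* at 43.9 and 597. In the *Myl7* gate 5 of 5 tested targets were at least 2-fold higher at day 6, with a median ratio of 146 against 0.971, and 6 of 6 at day 11, with a median of 201 against 0.778. The shares over all genes were 8.1% and 11.9%. *Myh6* is also in the cardiomyocyte marker list used to check this gate. *Myh6* stood at 302 CPM in the gate at day 6 and 2460.3 at day 11, and *Nppa* at 2.08 and 170. None of the 3 targets tested in the *Myl7* gate of day 4 was at least 2-fold higher, against 1.6% of all genes.

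Of 9 haemato-endothelial partners, 5 were at least 2-fold higher at day 5 than at day 4, against 19.1% of all genes. *Gata2* was higher at the same step. The 5 were the haematopoietic factor *Tal1*, its partners *Lmo2* and *Lyl1*, and the ETS factors *Fli1* and *Erg*. *Gata1* was at least 2-fold lower, from 55 to 12 UMIs, as were 7.51% of all genes. From day 5 to day 6, *Fli1*, *Erg*, *Zfpm1* and *Gata1* were at least 2-fold higher (4 of 9, against 18%) and *Runx1* lower (against 14.1%). The ratio of *Gata2* for that step was 0.649. From day 6 to day 11, *Runx1* was higher (1 of 9, against 19.2%) and *Tal1*, *Lmo2* and *Gata1* were lower (3 of 9, against 7.72%), as was *Gata2*. *Tal1* stood at 1.82, 6.12, 3.30 and 1.60 CPM on the 4 days, and at 71.5, 28.7 and 18.3 in the *Cdh5* gate of days 5, 6 and 11 against 6.10, 1.11 and 0.460 in ungated cells. In the *Cdh5* gate 5 of 8 tested partners were at least 2-fold higher at day 5, 5 of 9 at day 6 and 6 of 8 at day 11, with medians of 10.3, 4.87 and 12.9 against 0.941, 0.890 and 0.803 over all genes. *Lyl1*, *Fli1* and *Erg* stood at 45.2, 95.2 and 45.8 CPM in the *Cdh5* gate of day 6. *Runx1*, a factor of definitive blood, was not among the genes higher in that gate, at 5.09, 4.39 and 0.757 CPM, and the pan-leukocyte gene *Ptprc* had 0 UMIs there on each day. The 8 haematopoietic markers, *Ptprc* among them, summed to 22.2, 47.4 and 8.58 CPM in that gate, against 2.60, 36.6 and 146 in ungated cells. Of these markers 1, 5 and 0 were at least 2-fold higher in the gate at days 5, 6 and 11, against 8.86%, 11.1% and 8.66% of all genes. Their part in the *Gata2* level was not tested.

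Of 6 endoderm partners, 6 of 6 tested were at least 2-fold higher in the *Epcam* gate at day 4, 5 of 5 at day 5 and 5 of 5 at day 6, with median ratios of 69.3, 48.7 and 112. Over all genes 11%, 10.1% and 9.58% were that much higher, with medians of 0.976, 1.01 and 0.992. *Foxa2*, *Sox17* and *Foxa1* are also in the endoderm marker list used to check this gate, so these counts are not separate from that check. *Foxa2* stood at 54.5, 22.5 and 45.2 CPM in that gate and *Sox17* at 105, 41.6 and 50.4. *Sox17* was also found in the *Cdh5* gate, at 68.2, 186 and 71.6 CPM at days 5, 6 and 11.

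Genes with the most similar pattern were found by Pearson correlation of log2(CPM + 1) over the 20 classes among 11103 genes that reached 10 CPM in a class. The classes of a day share a library, so the coefficients describe these data only. Of the 15 neighbours named, 4 (*Stt3a*, *Crispld1*, *Nrp1* and *Gata6* for *Gata4*) were kept with Spearman correlation, and 3 (*Zfpm1*, and *Gata4* and *Gata6* for each other) without the classes of day 11. *Gata2* was closest to *Tal1* (r = 0.951), the endothelial receptor gene *Acvrl1* (0.933) and *Tnfaip2* (0.927). *Gata4* was closest to *Zfpm1* (0.906), a zinc finger cofactor of GATA factors, to *Gata6* (0.889) and to *Nrp1* (0.877), a VEGF co-receptor. *Gata6* was closest to *Hand2os1* (0.912), a long noncoding RNA gene next to *Hand2*, to *Nek7* (0.890) and to *Gata4*. *Gata5* was closest to *Tspyl1* (0.923), *Yipf5* (0.914) and *Fzd1* (0.912), and *Gata3* to *Stt3a* (0.846), *Crispld1* (0.826) and *Cept1* (0.815).

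Among the factors themselves *Gata4* and *Gata6* were the most alike (r = 0.889, Spearman rho = 0.893), followed by *Gata5* and *Gata6* (0.692 and 0.686) and by *Gata4* and *Gata5* (0.496 and 0.466). The other 7 pairs had r between 0.0142 and 0.229. *Zfpm1* stood at 51.0, 26.2, 61.0 and 34.5 CPM on the 4 days and, like *Gata4*, had its lowest value at day 5.

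**Figure D5:**
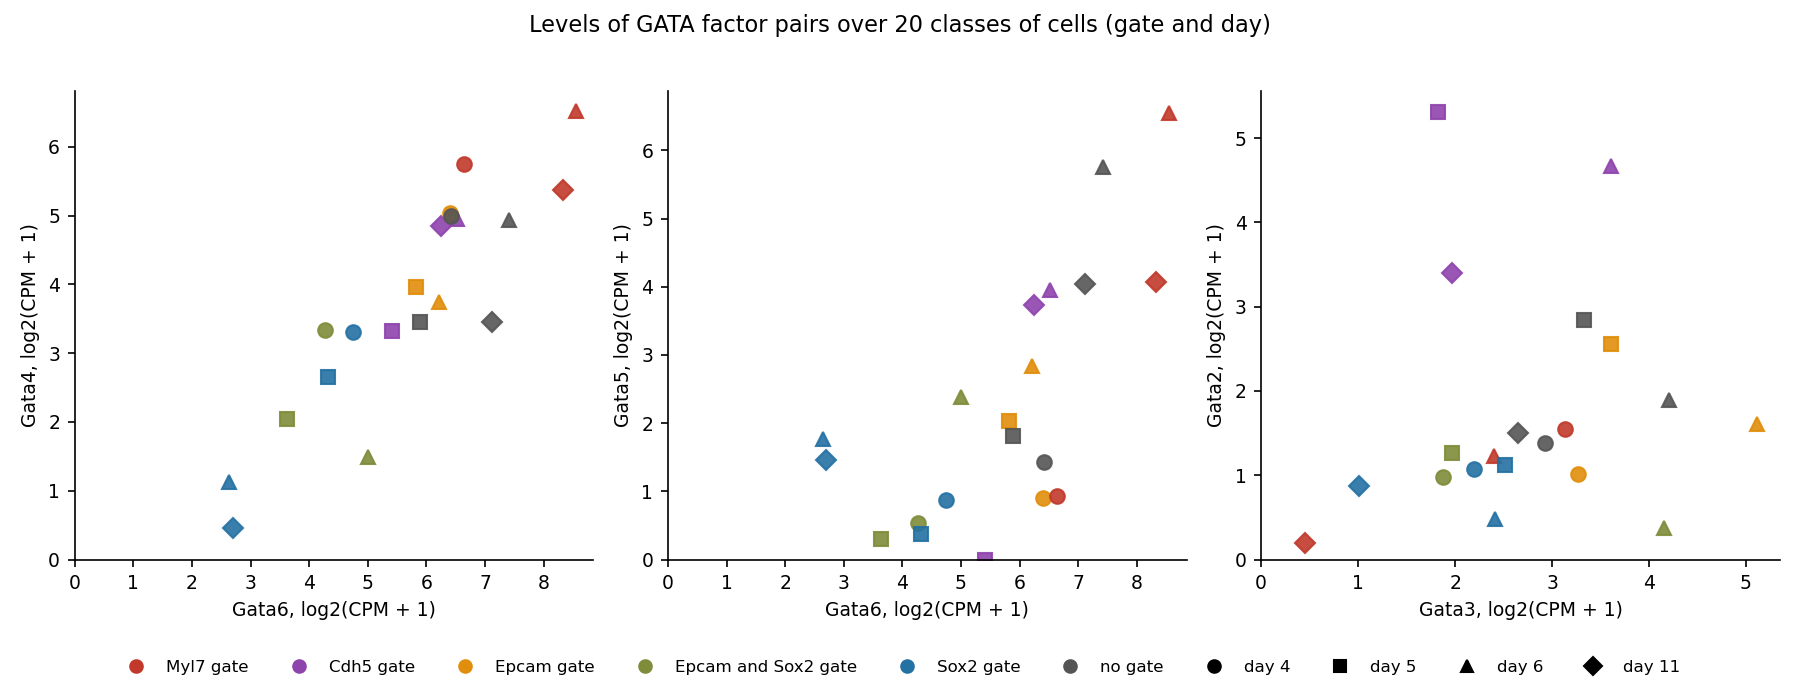
Levels as log2(CPM + 1) of *Gata4* against *Gata6*, *Gata5* against *Gata6* and *Gata2* against *Gata3* in the 20 classes of cells (colour, gate; symbol, day). The points of *Gata4* and *Gata6* lie along a line (r = 0.889), the *Cdh5* classes stand apart as high in *Gata2*, and the *Gata5* points of days 4 and 5 lie below those of days 6 and 11 at like *Gata6*.

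Cells rich in a factor (3 or more UMIs) were set against cells of the same day with 0 UMIs of it, where at least 50 were rich. The rich cells were deeper in most comparisons, and the values are descriptions. Several leading genes are members of the marker lists, and the sum of such a list is then not separate from them. At day 5 the 98 *Gata2*-rich cells (median 34258 UMIs, against 27649) were led by *Ctla2a* (515 against 17.5 CPM), the VEGF receptor gene *Kdr* (202 against 15.4), *Ramp2*, the haemangioblast factor *Etv2* (130.2 against 9.92) and *Hhex*, and 24 of them passed the *Cdh5* gate. At day 6 the 53 *Gata2*-rich cells were led by *Cdh5* itself (339 against 17.7 CPM), *Ctla2a*, *Ramp2*, *Ecscr* and *Kdr*, and 35 of them passed the gate. Endothelial markers summed to 773 against 114 CPM at day 5 and 1986 against 173 at day 6.

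*Gata3*-rich cells had higher summed levels of epithelial and endoderm genes. Their leading gene was *Spink1*, a trypsin inhibitor gene expressed in definitive endoderm and gut, at day 4 (303 against 44.2 CPM, 56 rich cells), the claudin gene *Cldn7* at day 5 (149 against 42.4, 80 rich cells) and the gut peptide gene *Pyy* at day 6 (91.2 against 5.64, 191 rich cells), with *Epcam* next at day 6 (101 against 16.6). Endoderm markers, *Spink1* among them, were 4.78-fold, 2.46-fold and 3.78-fold higher in sum on these days. At day 6 intermediate mesoderm markers were also 3.27-fold higher in sum and surface ectoderm markers 1.56-fold, from 9.001 against 5.75 CPM, and 139 of the 191 cells passed no gate. At days 4 and 5, 31 of the 56 and 41 of the 80 rich cells passed no gate, and 17 and 37 passed the *Epcam* gate. The number of *Gata3*-rich cells that held the endoderm genes was not tested.

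*Gata4*-rich cells held different leading genes at days 5 and 6. At day 5 the 122 rich cells were led by *Spink1* (616 against 53.6 CPM) and the transthyretin gene *Ttr* (118 against 4.93), and endoderm markers were 8.05-fold higher in sum while cardiomyocyte markers were level (0.990). At day 6 the 727 rich cells were led by *Sfrp5*, a secreted Wnt antagonist of the inflow tract (183 against 7.23 CPM), *Myl4*, *Alcam*, *Tnnt2* and *Shox2*, a sinoatrial node factor (85.7 against 3.69), with cardiomyocyte markers 7.96-fold and juxtacardiac markers 3.78-fold higher in sum. At day 11 the 182 rich cells were led by *Myh6* (1898 against 288 CPM), *Casq1*, *Ryr2*, *Csrp3* and *Ttn*, and their median depth was 26672 UMIs against 10828. At day 4 the 715 rich cells had *Spink1* and *Eomes*, a factor of streak and early endoderm (116 against 26.2 CPM), in the lead.

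For *Gata5*-rich cells the leading genes differed between days 6 and 11. The 1066 rich cells of day 6 were led by *Myl7* (2060.1 against 302 CPM), *Actc1*, *Ppp1r14c*, *Ttn* and *Myl4*, with cardiomyocyte markers 5.94-fold higher in sum and endoderm markers at a ratio of 0.0870. The 106 rich cells of day 11 were led by the liver and yolk sac genes *Apoa2* (138 against 12.9 CPM), *Ttr* (137 against 19.4) and *Afp* (185 against 29.2). Next came *Cavin2* (131.5 against 25.5 CPM) and *Gal* (122 against 24.8). Endothelial markers were 1.77-fold and epicardial markers 1.62-fold higher in sum in these cells. The endoderm list, which holds *Ttr* and *Afp*, summed to 369 against 61.1 CPM (6.04-fold), with these 2 genes as most of it, and cardiomyocyte markers were level (0.9503). Of the rich cells 74 passed no gate, 15 the *Myl7* gate, 12 the *Cdh5* gate and 2 the *Epcam* gate. How many of these cells carried the endoderm genes was not tested.

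*Gata6*-rich cells were the most numerous, at 2126, 1619, 2737 and 2418 on the 4 days. *Spink1* led them at days 4 and 5, with *Hand2* among the first 5 genes on both, and *Myl7* at days 6 (1851 against 26.1 CPM) and 11 (8760.2 against 346). Cardiomyocyte markers were 60.7-fold higher in sum at day 6 and 14.3-fold at day 11, and 1.15-fold and 1.11-fold at days 4 and 5. Pluripotent markers were at a ratio of 0.136 at day 4 and 0.0360 at day 5.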

How the data were processed

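Single-cell RNA libraries of Zx1 gastruloids at days 4, 5, 6 and 11 (1 per day) were used. The authors deposited raw UMI counts per gene and called cell; the submitters' processing notes name Cell Ranger 3.1.0 and mm10, and the matrix header of day 11 names 6.0.1. CPM, percentages and ratios were computed here from the deposited counts (Python 3.11.15, numpy 2.4.6, scipy 1.17.1, scikit-learn 1.9.0, matplotlib 3.10.9). A cell entered the comparisons if it had over 200 detected genes, less than 20% mitochondrial and above 5% ribosomal protein UMIs, and a log10 depth no more than 3 scaled median deviations from the library's median, and the 8% with the highest simulated-doublet scores were removed (570, 561, 456 and 682 cells). Intervals are exact Poisson for CPM and for the joint cells of a pair (over a fixed product), Clopper-Pearson for shares and conditional binomial for CPM ratios; PCR and capture add error that they do not cover. A 2-fold ratio was counted as a difference among genes with at least 30 UMIs over both sets. Genes are named from the 5 factors, the gating genes, the partner and marker lists, the 3 most similar genes per factor and the 5 leading genes of rich cells (largest ratio of CPM + 10 among genes of at least 50 CPM). The functions were tested on simulated data. The factors, lists and gates were chosen with earlier results of these data known. Alternatives were other cell filters, gate limits, comparison cells, thinning depths, UMI limits and the 1.5-fold limit.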

Additional observations from a re-analysis of the deposited data

Results flagged for a closer look

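Counts of *Gata5os*, the gene antisense to *Gata5*, enter none of the comparisons and stand above the limit of 3 UMIs that a count of 0 allows, with 4, 5, 53 and 39 UMIs at days 4, 5, 6 and 11. At day 6, 44 of the 51 cells with *Gata5os* also held *Gata5*, which 47.0% of all cells held, and 13 of the 53 UMIs lay in the *Myl7* gate. At day 11, 9 of the 38 cells with *Gata5os* held *Gata5*, which 13.5% of all cells held. Of the 39 UMIs 32 lay in the *Myl7* gate, where 23.9% of cells held *Gata5*, so the share over all cells is not the fitting one to set beside them. Whether the UMIs of the 2 genes were told apart by strand was not tested. No other result was marked, because each group has 1 library.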

How the results depend on the processing

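No paired analysis was possible because each day has a single library. With 1.5-fold in place of 2-fold, 2 factors were higher at day 5 than at day 4 (in place of 1) and 1 was lower at day 6 than at day 5 (in place of 0). Against all other cells, 5 combinations of factor and gate were at least 2-fold higher at day 6 (in place of 3). With 2 or more UMIs for a positive cell, 1 pair at day 4 and 2 pairs at day 11 stood at 2 or more times the product of their shares, and without depth bins 2 did at day 11. Of the 15 genes most like the factors, 4 were shared under Spearman correlation and 3 without the classes of day 11. In 91 other recalculations such counts stayed within 1.5 times of the value given. No ratio changed direction past 2-fold. Of 830 recalculated single values, 90 moved by more than 1.5 times, mostly ratios in the *Sox2* classes with few UMIs. *Gata5* in the *Sox2* gate of day 5, with 1 UMI, had a ratio of 0.118 and of 0.556 with higher gate limits; the cause was not tested. Shallow cells limit day 11, where *Gata2* rests on 218 UMIs.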
